A study of Mus musculus with 21 samples.

Results

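The comparison described here is LB31 mouse pre-B leukaemia cells given BLNK against the same cells given an empty vector. The arrays were chosen by their titles, 3 labelled BLNK and 3 labelled with the empty vector pMY, and make up 6 of the 21 arrays of the series. LB31 is a pre-B acute lymphoblastic leukaemia line that, per the labels, was established from a Blnk knockout mouse, so every LB31 group carries that background. By retroviral transduction with pMY the cells received no insert (empty-vector arrays), Blnk cDNA (BLNK-labelled arrays) or YF, a Blnk mutant described as lacking function (YF-labelled arrays), with 3 arrays in each group. They were grown in RPMI1640 with 10% FBS and 5 ng/ml of interleukin 7, and 100 ng of total RNA was labelled for each array. LB31 is a single line, and neither the number of transductions nor whether the arrays of a group came from separate cultures is stated in the sources used here. The p-values below therefore measure only the spread between these arrays, which may be technical. The other arrays used for comparison were sorted B220-positive marrow cells, 3 arrays from wild-type and 3 from Blnk KO mice. Arrays of marrow from LAP transgenic mice, with and without the Blnk KO, were normalized and fitted with them, 12 marrow arrays in all. The marrow SE and adjusted p-values therefore rest on all 12. The labels give no age for the mice.

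The pre-B cell receptor is a surface complex of an immunoglobulin heavy chain, the surrogate light chain proteins VpreB and lambda5, and the signalling partners CD79A and CD79B. BLNK, also called SLP-65, is the adaptor that the kinase SYK phosphorylates below this receptor, and it gathers BTK, phospholipase C gamma 2 and VAV proteins into a signalling complex. In normal marrow this signal ends the proliferating large pre-B stage, lowers the surrogate light chain and interleukin 7 responses, and opens light chain rearrangement. Mice that lack Blnk accumulate pre-B cells and are prone to pre-B leukaemia, and BLNK is classed as a tumour suppressor in this lineage.

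The defining markers of the labelled cell type were present, with 11 of 11 B-lineage markers above the filter level (normalized log2 signal of 3.87) in each of the 3 LB31 groups. The mean of these markers was 10.41 to 10.51 on the empty-vector arrays and 10.65 to 10.68 on the BLNK-labelled arrays. They did not rise as a set, since 4 of the 11 were called higher and 5 lower, against 7.37% and 8.58% of all genes. With the signals as deposited the counts were 2 and 0, and with each array centred on its median 5 and 0. Cd22, 1 of the 11, rose by 2.63, as described below. Lists of T and NK cell, megakaryocyte and erythroid, and stromal cell markers had mean levels between 3.36 and 4.12 on all 9 LB31 arrays, near or under the filter level. Other lists were brighter, with means of 7.33 to 7.70 for plasma cell markers and 6.38 to 6.86 for plasmacytoid dendritic cell markers. Of the latter, 5 of 8 genes were above the filter level in each group. The source of these signals was not tested. The 3' to 5' signal ratio of Gapdh control probes, a measure of RNA integrity, was 0.701 to 0.725 with the empty vector and 0.691 to 0.728 on the BLNK-labelled arrays, so the groups overlapped. Empty-vector array 1 was closer to the YF-labelled arrays than to its own group. Its correlation over the genes tested was 0.977 to 0.980 with the other empty-vector arrays and 0.983 to 0.984 with the YF-labelled arrays. Within the group, empty-vector array 2 had the lowest correlations, at 0.976 to 0.977.

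The Blnk probe set did not follow the labels. Its normalized log2 signal was 9.63, 9.64 and 9.66 on the empty-vector arrays, 8.47, 8.45 and 8.56 on the BLNK-labelled arrays, and 9.30, 9.49 and 9.37 on the YF-labelled arrays. The arrays labelled as carrying Blnk cDNA were thus the lowest, with a difference of -1.15 ± 0.06 (log2 change ± SE, limma, adjusted p = 2.34e-08, 3 arrays per group). They did not overlap the empty-vector arrays, as was so for 29.9% of all genes tested. In marrow the same probe set did not separate Blnk KO from wild-type mice either (log2 change -0.07 ± 0.11, adjusted p = 0.761). Whether its probes lie in the deleted part of the gene or in the vector's cDNA is not stated, so it checks neither label. Every direction below is that of the arrays as labelled. Cebpb, the transcription factor gene of the series' other genetic change, was at 10.14, 10.34 and 10.33 with the empty vector and 10.10, 10.17 and 10.20 on the BLNK-labelled arrays (log2 change -0.11 ± 0.08, adjusted p = 0.369). That difference missed the threshold and its sign turned under other scalings. In marrow, normalized apart from LB31, the same Cebpb probe set averaged only 5.65 in wild-type and 5.23 in Blnk KO cells. The cause of this gap between LB31 and marrow was not tested.

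Of 13024 genes tested, 2077 differed between BLNK-labelled and empty-vector arrays at an adjusted p under 0.05, or 15.9%. They were 960 higher genes (7.37%) and 1117 lower genes (8.58%). Most changes were small, and 173 genes changed at least 2-fold, 87 higher and 86 lower. Groups that did not overlap were common, in 3895 genes or 29.9%. The split between higher and lower genes depended on how the arrays were scaled. It was 960 and 1117 after quantile normalization, 358 and 147 with the signals as deposited, and 1501 and 309 after centring each array on its median. The last 2 scalings moved the median gene by 0.11 and 0.13 (log2), against -0.01 in the quantile-normalized values. At 2-fold or more the split was 89 and 65 with the signals as deposited and 105 and 68 after median centring. The genes described singly below were called in the same direction under all 3 scalings unless stated. Counts of called genes in the lists below are to be set against the counts over all 13024 genes under the same scaling. Without empty-vector array 1 the number called was 2813, of which 143 were higher and 106 lower by at least 2-fold.

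**Figure D1:**
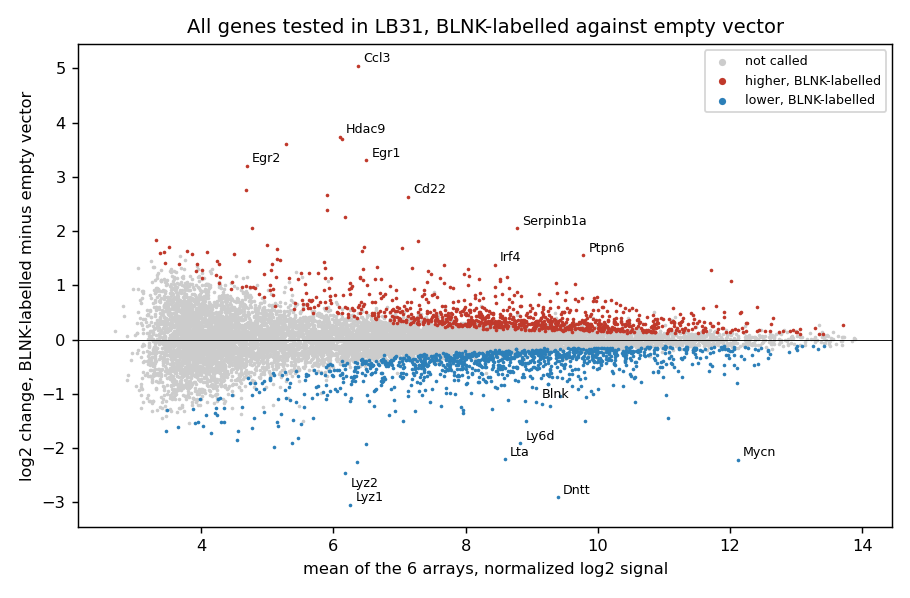
Each point is 1 of 13024 genes tested in LB31; the x axis is the mean normalized log2 signal of the 6 arrays and the y axis the log2 change, BLNK-labelled minus empty vector, with the 960 higher genes in red, the 1117 lower genes in blue and the rest grey. Ccl3 (5.04), Hdac9 (3.74) and Egr1 (3.31) lie at the top, and Lyz1 (-3.05), Dntt (-2.90) and Mycn (-2.21, the brightest gene labelled) at the bottom.

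Genes induced by signalling were among the largest rises. Egr1 and Egr2 encode zinc finger transcription factors of the immediate early class, made within a short time of ERK activation by antigen receptors. Egr1 read 5.22, 4.99 and 4.33 (log2 signal) with the empty vector and 8.07, 8.07 and 8.31 on the BLNK-labelled arrays, a rise of 3.31 ± 0.19 (adjusted p = 9.01e-08). Egr2 read 2.97, 3.15 and 3.13 against 6.23, 6.47 and 6.15, a rise of 3.20 ± 0.28 (adjusted p = 3.36e-06) from a level under the filter. Both genes were higher on all 3 BLNK-labelled arrays than on any empty-vector array, which was a condition of their selection. They were also higher there than on any YF-labelled array, a comparison that uses the same BLNK-labelled arrays. The second Egr2 probe set also rose. Egr3, another member of the family, was dim, at 2.71, 2.98 and 2.21 against 3.95, 4.39 and 4.38. Its difference of 1.61 ± 0.50 had an adjusted p of 0.0459, and it did not pass when any 1 empty-vector array was left out or with either other scaling (adjusted p up to 0.20).

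The promoter of Egr2 is shown because immediate early genes are known targets of serum response factor, which binds the CArG box, and Egr2 was the only 1 of the 11 rising genes with a promoter window here that held one. Egr1 was not searched. The windows are the 250 bases before a RefSeq start site, on GRCm38.p6, plus strand, 5' to 3', with the CArG box in capitals. Of 5 Egr2 windows 4 hold the box, 3 of them overlapping, and the window of the start farthest upstream holds none. In each of the pair below 62 bases lie between the box and the start.

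Egr2 promoter, chr10:67537316-67537565: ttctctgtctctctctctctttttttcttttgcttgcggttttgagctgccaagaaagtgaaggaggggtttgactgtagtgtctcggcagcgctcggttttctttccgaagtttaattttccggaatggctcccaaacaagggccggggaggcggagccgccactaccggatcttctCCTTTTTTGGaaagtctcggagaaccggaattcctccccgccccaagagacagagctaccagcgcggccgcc

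Egr2 promoter, chr10:67537619-67537868: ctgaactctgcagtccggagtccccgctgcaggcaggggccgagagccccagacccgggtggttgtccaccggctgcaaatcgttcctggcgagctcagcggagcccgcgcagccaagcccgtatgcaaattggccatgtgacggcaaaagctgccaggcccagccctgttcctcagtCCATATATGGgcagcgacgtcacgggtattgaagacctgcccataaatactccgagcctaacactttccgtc

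A CArG box, searched on both strands, was present in 1.47% of 32841 mouse promoter windows and in 1.11% of the windows of genes tested in LB31. These shares count windows, and the 11 rising genes had 19, so the count of genes cannot be set directly against them. None of the 12 falling genes with a window held one. Sites for EGR factors and for NF-kB were searched too. Each was found in 0 of the 11 rising and 1 of the 12 falling genes. They were present in 8.19% and 4.46% of the windows of genes tested. A match describes the letters of the window and does not show binding.

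The largest rise was Ccl3, the inflammatory chemokine MIP-1 alpha, which B cells release after receptor stimulation. It read 2.74, 4.53 and 4.26 with the empty vector, 4.93, 5.05 and 5.42 on the YF-labelled arrays, and 8.84, 9.02 and 8.79 on the BLNK-labelled arrays. The rise was 5.04 ± 0.34 (adjusted p = 3.5e-07) from a mean under the filter level, so its size depends on the constant added before the logarithm, and it ranged from 4.15 to 5.47 over 17 other settings. Another chemokine gene, Ccl9, rose from 8.64, 8.66 and 8.79 to 9.51, 9.59 and 9.51 (0.84 ± 0.06, adjusted p = 7.57e-07). Ccl5, which encodes RANTES, differed the other way at a dim level, by -1.69 ± 0.47 (adjusted p = 0.0253). That call did not hold as deposited or without any 1 of 5 arrays, with adjusted p up to 0.11.

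Of the wider immediate early and ERK feedback list, 10 of 32 tested genes rose and 5 fell (4 and 2 as deposited, 9 and 3 after median centring), against 7.37% and 8.58% of all genes. The falls included Dusp5, a nuclear phosphatase that acts on ERK, from 9.81, 10.05 and 9.80 to 8.72, 8.53 and 8.75 (-1.22 ± 0.08, adjusted p = 1.83e-07). Btg2, an antiproliferative early gene, fell by 0.95 ± 0.15. The list therefore did not move as a unit, since its EGR members rose while Dusp5 and Btg2 fell.

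Genes that restrain B cell receptor signals moved both ways, with 5 of 22 higher and 8 lower, against 7.37% and 8.58% of all genes. Cd22, a sialic acid-binding inhibitory co-receptor, read 5.60, 5.92 and 5.91 with the empty vector and 8.45, 8.40 and 8.47 on the BLNK-labelled arrays. This rise of 2.63 ± 0.13 (adjusted p = 2.16e-08) was 6.2-fold, and the YF-labelled arrays stayed at 5.82, 6.28 and 6.05. Ptpn6, which encodes SHP-1, the phosphatase recruited by CD22 and CD72, rose from 8.96, 9.05 and 9.01 to 10.57, 10.52 and 10.58 (1.55 ± 0.06, adjusted p = 1.58e-09). Cd72, a co-receptor that also acts through SHP-1, rose by 0.86 ± 0.05, from 8.91 to 8.98 up to 9.78 to 9.83. Btla, an inhibitory receptor of the immunoglobulin superfamily, rose by 1.39 ± 0.22 and Dusp22, a dual-specificity phosphatase, by 0.91 ± 0.11. Values of these 5 genes did not overlap between the groups, which also held for 29.9% of all genes tested. Pdcd1, which encodes the inhibitory receptor PD-1, was 2.30, 2.61 and 2.30 with the empty vector and 4.05, 4.54 and 4.11 on the BLNK-labelled arrays. Both levels were near or under the filter level, and its call (1.83 ± 0.49, adjusted p = 0.0219) was lost without empty-vector array 3 (adjusted p = 0.053) and with the other 2 scalings. The 5 rises of this list stood under each scaling, while of the 8 falls 1 was called as deposited and 2 after median centring. Ptpn22, a phosphatase that acts on SRC and SYK family kinases, was a fall under all 3, from 7.03, 7.16 and 7.11 to 6.09, 5.75 and 6.08 (-1.13 ± 0.12, adjusted p = 2.73e-05).

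**Figure D2:**
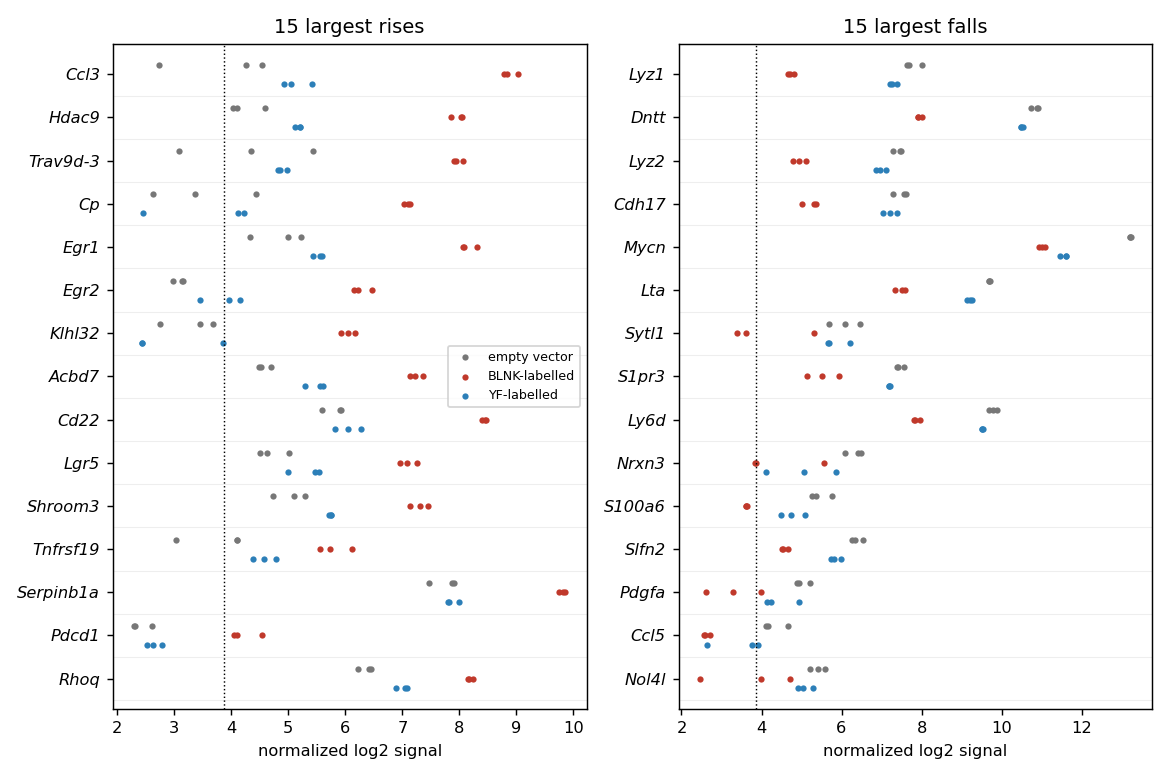
Normalized log2 signal (x axis) of each of the 15 largest rises (left) and 15 largest falls (right), 1 point per array, grey for empty vector, red for BLNK-labelled and blue for YF-labelled; the dotted line is the filter level of 3.87. Red and grey points do not overlap in any of the 30 genes, a condition of the selection, and for Cd22 the blue points (5.82 to 6.28) lie with the grey ones.

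Among genes of proximal B cell receptor signalling, the kinase gene Blk rose. Blk, a SRC family kinase of B cells, read 8.74, 8.97 and 8.85 with the empty vector and 9.89, 9.99 and 9.80 on the BLNK-labelled arrays (1.04 ± 0.07, adjusted p = 2.83e-07). Its groups did not overlap, as was so for 29.9% of all genes tested. Vav3, a guanine nucleotide exchange factor that binds BLNK, rose by 0.85 ± 0.16 (adjusted p = 0.00246). Lcp2, which encodes SLP-76, the T cell and myeloid counterpart of BLNK, fell from 7.28, 7.49 and 7.23 to 6.21, 6.46 and 6.58 (-0.92 ± 0.13, adjusted p = 0.000227). Plcg1, the phospholipase C used mainly by T cell receptors, fell by 0.77 ± 0.07. Syk itself differed by -0.19 ± 0.07 and missed the threshold (adjusted p = 0.0989). Btk and Plcg2 were lower by 0.29 and 0.38 after quantile normalization alone (adjusted p of 0.73 to 0.87 and 0.46 to 0.78 with the other scalings). In all, 5 of 33 genes of proximal signalling rose and 10 fell, against 7.37% and 8.58% of all genes. The counts were 3 and 3 as deposited and 5 and 3 after median centring.

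The genes of the pre-B cell receptor itself changed little. After quantile normalization 5 of 6 tested subunit genes were lower, but 0 were called with either other scaling. Cd79a, the receptor's signalling chain, was 10.72, 10.81 and 10.88 against 10.17, 10.32 and 10.29 (-0.54 ± 0.05), with adjusted p of 0.084 after median centring and 0.41 as deposited. The surrogate light chain genes Igll1 and Vpreb1 differed by -0.22 ± 0.04 and -0.11 ± 0.03, and their median-centred differences were 0.0032 and 0.10, with the opposite sign. Both stayed among the brightest genes of the line, at 12.77 or more on every LB31 array.

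Some kappa light chain segments were higher. Of 9 immunoglobulin segment genes tested, 3 rose and 0 fell under each of the 3 scalings. The shares of all genes were 7.37% and 8.58% after quantile normalization. Igkv4-68, a kappa variable segment, read 6.28, 6.43 and 6.35 with the empty vector and 7.23, 7.38 and 6.86 on the BLNK-labelled arrays (0.80 ± 0.14, adjusted p = 0.00134). Igk, the probe set for the kappa locus, rose by 0.84 ± 0.16 from 7.52, 7.02 and 6.75 to 7.89, 8.06 and 7.86. Its probe set with the highest variance gave 0.39 (adjusted p = 0.80). Igkv8-30 differed by 1.28 ± 0.31, with empty-vector values of 11.67, 9.95 and 11.59 against 12.35, 12.38 and 12.33, so the size rested largely on empty-vector array 2; without that array it was 0.72, and the call was lost without the intensity trend (adjusted p = 0.10). Variable segments are near-identical in places, and their probe sets can read each other's transcripts.

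Among genes of V(D)J recombination, Dntt stood out. It encodes TdT, the polymerase that adds untemplated bases at heavy chain joints in pro-B cells. Dntt read 10.89, 10.74 and 10.90 with the empty vector, 10.47, 10.49 and 10.54 on the YF-labelled arrays, and 7.90, 8.0 and 7.92 on the BLNK-labelled arrays. It fell by 2.90 ± 0.05 (adjusted p = 1.5e-12), to 0.134 of the empty-vector level, and its 2 other probe sets fell too. Rag1 and Rag2, the recombinase genes, did not pass the filter on dim probe sets in LB31. Of the 10 list genes tested, 1 rose and 2 fell (1 and 1 with either other scaling), against 7.37% and 8.58% of all genes.

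Stage markers moved in several directions. Il2ra, which encodes CD25, the surface marker of small pre-B cells, rose from 5.49, 5.43 and 5.27 to 6.23, 6.41 and 6.29 (0.92 ± 0.14, adjusted p = 0.000587). Cxcr4, the CXCL12 receptor that holds pre-B cells in marrow niches, rose by 0.57 ± 0.09, from 8.29 to 8.60 up to 8.89 to 9.07. The tetraspanin gene Cd53 rose by 0.31 ± 0.04 and Tnfrsf13b, the receptor TACI of later B cells, by 0.33 ± 0.05. Cd2 (-1.0 ± 0.18), an adhesion molecule of pre-B and later cells, and H2-Oa (-0.82 ± 0.12), a modulator of MHC class II loading, fell. Over the list of later-stage surface and MHC class II genes 5 of 25 rose and 4 fell, against 7.37% and 8.58% of all genes. With both other scalings the counts were 5 and 2. Among antigens of earlier stages, Ly6d, which marks lymphoid progenitors committed to the B lineage, fell from 9.79, 9.87 and 9.68 to 7.83, 7.82 and 7.96 (-1.91 ± 0.06, adjusted p = 3.98e-10). Gfra2 (-0.64 ± 0.08) and Bst1 (-0.53 ± 0.04) were lower, the first lost as deposited (adjusted p = 0.16) and the second with both other scalings (adjusted p = 0.053 and 0.37). Of that list 2 of 14 rose and 6 fell, with 0 and 1 as deposited and 2 and 2 after median centring.

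The list of differentiation factors, which takes in cofactors, held the second largest rise. Hdac9 encodes a class IIa histone deacetylase that binds and represses MEF2 factors. It read 4.58, 4.03 and 4.09 with the empty vector, 5.21, 5.20 and 5.11 on the YF-labelled arrays, and 8.02, 7.86 and 8.04 on the BLNK-labelled arrays (3.74 ± 0.16, adjusted p = 9.04e-09). Mef2c, its partner and a factor of pre-B cells, rose from 8.58, 8.18 and 8.27 to 9.23, 9.17 and 9.24 (0.87 ± 0.08). Irf4, which drives light chain rearrangement and the exit from cycle in pre-B cells, rose from 7.70, 7.77 and 7.77 to 9.12, 9.22 and 9.04 (1.38 ± 0.07, adjusted p = 1.59e-08). The groups did not overlap for any of these 3 genes, nor for 29.9% of all genes tested. Smaller rises were seen in Bach2 (0.43 ± 0.05), a repressor that guards pre-B and germinal centre states, and in Pou2af1 (0.31 ± 0.04), an octamer coactivator; the Bach2 probe set with the highest variance gave 0.25 (adjusted p = 0.47). Spib, an ETS factor, fell from 10.37, 10.48 and 10.49 to 9.65, 9.44 and 9.54 (-0.91 ± 0.06). Bcl11a, a factor of early lymphoid cells, fell by 0.91 ± 0.05 and Erg, an ETS factor of progenitors, by 0.89 ± 0.07. The groups did not overlap for these 3 genes either. Over the list 8 of 39 genes rose and 13 fell, against 7.37% and 8.58% of all genes. The counts were 6 and 3 as deposited and 11 and 7 after median centring, so the direction of the balance turned with the scaling.

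**Figure D3:**
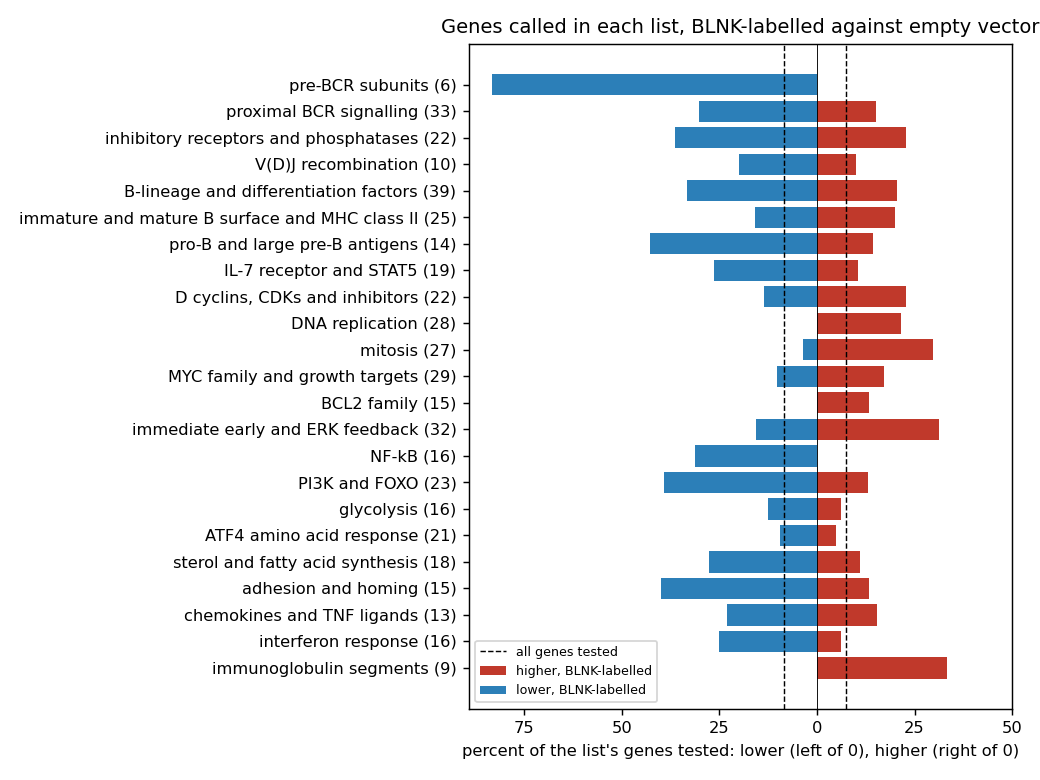
Bars give the percent of each list's tested genes (number in brackets) called lower (blue, left) or higher (red, right) on BLNK-labelled arrays after quantile normalization; dashed lines are the shares among all genes, 8.58% lower and 7.37% higher. Pre-B receptor subunits (5 of 6 lower) lost every call under the other scalings, while the immediate early genes (10 of 32 higher) and immunoglobulin segments (3 of 9 higher) kept rises.

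Targets of the interleukin 7 receptor and STAT5 fell in part. Pim1, a survival kinase gene induced by STAT5, fell from 9.90, 10.03 and 9.94 to 8.74, 9.05 and 8.94 (-1.05 ± 0.07, adjusted p = 3.1e-07). Socs3, a feedback inhibitor of cytokine receptors, fell by 0.99 ± 0.10. Cish, another feedback inhibitor and STAT5 target, fell by 0.69 ± 0.06, a call lost as deposited (adjusted p = 0.11). Ccnd2, the D cyclin that STAT5 also induces, went the other way, from 11.32, 11.40 and 11.37 to 11.69, 11.70 and 11.73 (0.34 ± 0.04, adjusted p = 2.26e-05), and its 6 other probe sets rose too. The receptor gene Il7r was lower by 0.33 ± 0.07 after quantile normalization alone, with adjusted p of 0.50 and 0.80 with the other scalings. Of 19 genes in this list 2 rose and 5 fell, against 7.37% and 8.58% of all genes. As deposited 1 and 2 were called, and after median centring 3 and 4.

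Cell cycle genes showed no fall as a group. Of 28 DNA replication genes 6 rose and 0 fell, against 7.37% and 8.58% of all genes. As deposited the list gave 3 and 0, against 358 and 147 of all 13024 genes. After median centring it gave 13 and 0, against 1501 and 309. The rises were small, such as Rfc4, a subunit of the clamp loader, by 0.34 ± 0.05 (adjusted p = 0.000321). Of 27 mitosis genes 8 rose and 1 fell (2 and 0 as deposited, 13 and 0 after median centring), and the spindle kinesin gene Kif2c rose by 0.50 ± 0.07. The fall was Mki67, the Ki-67 gene (-0.17 ± 0.04), whose sign turned with both other scalings (0.12 and 0.14). The cyclin-dependent kinase inhibitor gene Cdkn1a, which encodes p21, fell from 9.70, 9.79 and 9.79 to 8.36, 8.62 and 8.71 (-1.20 ± 0.09, adjusted p = 9.7e-07). Ccnd3, the D cyclin required by pre-B cells, was lower by 0.47 ± 0.04, a difference called after quantile normalization only (adjusted p = 0.26 and 0.62 otherwise). Over cyclins, kinases and inhibitors 5 of 22 rose and 3 fell, with 1 and 1 as deposited and 7 and 1 after median centring.

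Mycn, the neural member of the MYC family, was among the brightest genes of the line and fell strongly. It read 13.22, 13.23 and 13.22 with the empty vector, 10.94, 11.01 and 11.08 on the BLNK-labelled arrays, and 11.46, 11.62 and 11.61 on the YF-labelled arrays. The fall was 2.21 ± 0.05 (adjusted p = 4.27e-12) with BLNK and 1.66 with YF (adjusted p = 3.48e-10), and the 2 vectors differed by -0.55 (adjusted p = 5.52e-06). Mycn was thus lower with both vectors, and more so with BLNK, in relation to the same 3 empty-vector arrays. Of its 2 other probe sets 1 was called lower on the BLNK-labelled arrays. Myc itself was at 11.64, 11.76 and 11.74 against 11.78, 11.72 and 11.70 (0.02 ± 0.04, adjusted p = 0.78), though it was called higher by 0.35 after median centring (adjusted p = 0.015). Mxd4, a MAX partner that opposes MYC, fell from 7.64, 7.51 and 7.60 to 6.27, 6.23 and 6.29 (-1.32 ± 0.09). Odc1, a classical MYC target in polyamine synthesis, rose by 0.62 ± 0.10. Over the list of MYC family and growth genes 5 of 29 rose and 3 fell, against 7.37% and 8.58% of all genes. As deposited the counts were 1 and 2, and after median centring 12 and 2.

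Lta and Tnf, neighbouring members of the TNF ligand family, both fell, while Ltb did not pass the filter. Lta, which encodes lymphotoxin alpha, read 9.70, 9.69 and 9.70 with the empty vector, 9.20, 9.25 and 9.14 on the YF-labelled arrays, and 7.51, 7.35 and 7.60 on the BLNK-labelled arrays (-2.21 ± 0.07, adjusted p = 2.27e-10). Tnf was 6.25, 6.30 and 6.32 against 5.12, 5.46 and 3.59, a less even fall of 1.56 ± 0.37 (adjusted p = 0.0109). Without BLNK-labelled array 3 it was -1.0, and the call was lost without the intensity trend (adjusted p = 0.079). Nfkbie, which encodes the inhibitor I kappa B epsilon, fell by 0.90 ± 0.07. Of 16 NF-kB genes tested 0 rose and 5 fell, against 7.37% and 8.58% of all genes. As deposited 3 falls were called, and after median centring 4. Of 13 chemokine and TNF ligand genes 2 rose and 3 fell. Among interferon response genes, Gbp2, a guanylate-binding protein gene, fell from 7.68, 7.94 and 7.80 to 6.37, 6.30 and 6.25 (-1.50 ± 0.10) and its relative Gbp3 by 0.78 ± 0.08. In that list 1 of 16 genes rose and 4 fell.

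PI3K pathway and FOXO-responsive genes were lower in 9 of 23 cases and higher in 3, against 8.58% and 7.37% of all genes. As deposited 1 was lower and 2 higher, and after median centring 6 and 3. Pik3ip1, an inhibitor of PI3K, fell from 6.28, 6.75 and 6.29 to 5.18, 5.47 and 5.36 (-1.10 ± 0.16, adjusted p = 0.000412). Pmaip1, the BH3-only death gene for NOXA, rose from 4.93, 5.19 and 5.07 to 6.22, 5.93 and 6.10 (1.02 ± 0.17, adjusted p = 0.000913), and 2 of 15 BCL2 family genes rose in all. Fbp1, the gluconeogenic phosphatase, rose by 0.69 ± 0.11. Of 16 glycolysis genes 1 rose and 2 fell, of 21 amino acid response genes 1 rose and 2 fell, and of 18 sterol and fatty acid synthesis genes 2 rose and 5 fell. With either other scaling 0 falls were called in these 3 lists. After median centring their rises numbered 4, 4 and 7, so the balance of each of these lists turned.

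A pair of sphingosine-1-phosphate receptor genes and an integrin gene fell. S1pr3, a sphingosine-1-phosphate receptor, fell from 7.42, 7.38 and 7.56 to 5.14, 5.51 and 5.95 (-1.92 ± 0.16, adjusted p = 2.27e-06). S1pr4, another receptor of that family, fell by 1.24 ± 0.07, from 8.49 to 8.59 down to 7.25 to 7.37. Itgal, the integrin alpha L chain of LFA-1, fell by 1.33 ± 0.23 and Cdh17, a cadherin first known from liver and intestine, by 2.25 ± 0.14. In the adhesion and homing list 2 of 15 genes rose and 6 fell, against 7.37% and 8.58% of all genes. It had 1 and 3 as deposited and 3 and 4 after median centring.

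The lysozyme genes Lyz1 and Lyz2 were among the 3 largest falls. Lyz2, the lysozyme of macrophages, read 7.46, 7.48 and 7.28 with the empty vector, 7.11, 6.86 and 6.96 on the YF-labelled arrays, and 5.12, 4.94 and 4.80 on the BLNK-labelled arrays (-2.45 ± 0.12, adjusted p = 2.34e-08). Lyz1, a near-identical paralog read by a cross-hybridizing probe set, fell by 3.05 ± 0.12, so the genes cannot be told apart with certainty. Lyz2 was the only 1 of 11 tested myeloid markers that was called. The mean log2 signal over 17 myeloid markers was 3.91 to 4.0 with the empty vector, 3.54 to 3.86 on BLNK-labelled and 3.59 to 3.81 on YF-labelled arrays, and its part in the Lyz2 result was not tested. Vim, the intermediate filament gene vimentin and 1 of the stromal markers, fell by 0.81 ± 0.06, with stromal marker means of 3.65 to 4.12 against 3.58 to 3.74. In bulk RNA such as this, fewer cells that express a gene and less RNA per cell cannot be told apart.

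The remaining large changes fell into no list. Of 19 further probe sets for the 15 largest rises 14 were called higher and 0 lower, and of 7 for the 15 largest falls 5 were called lower and 0 higher. The genes were chosen for their changes on these same arrays, so these counts are no separate support. Serpinb1a, an inhibitor of neutrophil proteases, rose from 7.47, 7.88 and 7.91 to 9.75, 9.81 and 9.85 (2.05 ± 0.10, adjusted p = 2.16e-08). Rhoq, the small GTPase TC10, rose by 1.82 ± 0.09 and Lgr5, a receptor for R-spondins known from stem cells, by 2.38 ± 0.19. Cp, the copper-carrying ferroxidase ceruloplasmin, rose by 3.61 ± 0.48 from values of 4.43, 3.36 and 2.63 to 7.03, 7.13 and 7.09, and its 4 other probe sets rose. Klhl32 (2.75 ± 0.42), Acbd7 (2.67 ± 0.15), the actin regulator Shroom3 (2.26 ± 0.16) and the TNF receptor family member Tnfrsf19 (2.06 ± 0.31) rose from means between 3.29 and 5.04. The empty-vector means of Cp, Klhl32 and Tnfrsf19 were under the filter level. None of the other probe sets tested for Lgr5 (1), Klhl32 (2) and Tnfrsf19 (2) was called. Among the falls, 1 of the 2 other probe sets of Mycn was called, and the 1 of Pdgfa was not. Trav9d-3, annotated by the platform as a T cell receptor alpha segment, rose by 3.69 ± 0.40 in a cross-hybridizing probe set, as did its 3 other probe sets. Of 15 T and NK cell markers only 5 could be tested, with 0 higher and 1 lower. Cd3d, Cd3e and Cd3g did not pass the filter. Cd3e read 2.74, 3.18 and 3.15 with the empty vector and 2.86, 3.95 and 4.46 on the BLNK-labelled arrays. Cd3g went the other way, at 3.41, 2.52 and 3.38 against 2.60, 2.26 and 2.72. The source of the Trav9d-3 signal was not tested. Falls of this kind were Slfn2 (-1.81 ± 0.16), a Schlafen gene tied to lymphocyte quiescence, S100a6 (-1.85 ± 0.25), a calcium-binding protein gene, and Pdgfa (-1.72 ± 0.37), a growth factor gene. The BLNK-labelled means of S100a6 (3.61) and Pdgfa (3.295) were under the filter level. Over the alternatives the fall of Pdgfa ranged from -2.18 to -0.99. Sytl1, an effector of RAB27, was 5.70, 6.47 and 6.09 against 3.40, 3.61 and 5.30, a fall of 1.98 ± 0.40 that was smaller on BLNK-labelled array 3. Nrxn3 (-1.91 ± 0.46) lost its call without BLNK-labelled array 1 or 2 (adjusted p = 0.058 and 0.059), and Nol4l (-1.68 ± 0.43) without empty-vector array 3 (adjusted p = 0.061). Both also lost it without the intensity trend (adjusted p = 0.083 and 0.082), and without BLNK-labelled array 1 the fall of Nol4l was -1.07. The mean of Nol4l on the BLNK-labelled arrays (3.72) was under the filter level.

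The YF-labelled arrays show what the vector with a loss-of-function mutant gave. Of the same 13024 genes, 42 differed between YF-labelled and empty-vector arrays (0.322%) and 1177 between BLNK-labelled and YF-labelled arrays (9.04%, of which 3.93% higher and 5.11% lower with BLNK). The first count was 1116 without empty-vector array 1, 594 as deposited and 1351 after median centring, but 1 to 15 when any other single array of those 2 groups was left out and 1 without the intensity trend, so it is far from settled. These comparisons share arrays with that of BLNK against the empty vector, so their values are given side by side and lend each other no support. Of the 15 largest rises 14 were also called higher than YF, and of the 15 largest falls 11 were called lower. The exceptions were Pdcd1, Nrxn3, Pdgfa, Ccl5 and Nol4l, whose adjusted p against YF was 0.0635 to 0.522. Of the rises, 3 also passed the threshold for YF against the empty vector, at a smaller size. These were Hdac9 (0.94 against 3.74), Acbd7 (0.92 against 2.67) and Rhoq (0.64 against 1.82). Among the falls Dntt (-0.34 against -2.90), Lta (-0.50 against -2.21) and Mycn (-1.66 against -2.21) passed. Of these 6 calls only Mycn held under all 17 alternatives. The other 5 held under 9 to 11, were lost when any 1 YF-labelled array or empty-vector array 3 was left out (adjusted p of 0.074 to 0.14), and the sign of Dntt turned as deposited (0.07). Cd22 (0.24) and Serpinb1a (0.12) differed little between YF and the empty vector and missed the threshold there (adjusted p = 0.402 and 0.637).

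**Figure D4:**
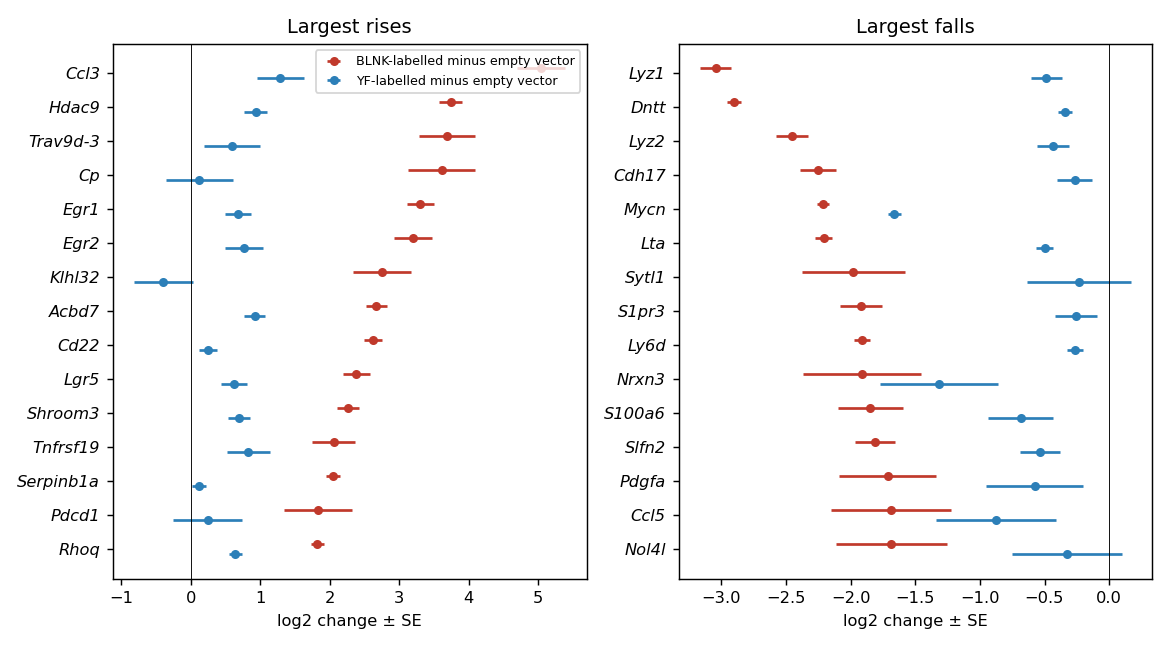
Log2 change with its SE (x axis) of the 15 largest rises and 15 largest falls for BLNK-labelled minus empty vector (red) and YF-labelled minus empty vector (blue), which share the 3 empty-vector arrays. Red values chose the genes, and among the blue ones Mycn (-1.66) comes nearest to its red value (-2.21).

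Marrow cells offered a comparison on arrays that share no sample with LB31. There 2277 of 13347 genes differed between Blnk KO and wild-type mice (17.1%), 1117 higher (8.37%) and 1160 lower (8.69%). Of 951 genes that were higher on BLNK-labelled LB31 arrays and measured in marrow, 148 were lower in KO marrow (15.6%) and 107 higher (11.3%). Of 1103 genes that were lower on BLNK-labelled arrays, 248 were higher in KO marrow (22.5%) and 115 lower (10.4%). Over all 12049 genes measured in both, 8.57% were higher and 9% lower in KO marrow. Each of the 4 shares was above the share over all genes, and the opposite-direction shares were the larger of each pair. The marrow groups may also hold different mixtures of B cell stages, which was not tested. Their split of higher and lower genes was 3211 and 376 with the signals as deposited.

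Single genes could be followed in both systems. Of the 74 list genes that rose in LB31, cell markers aside, 23 were lower and 9 higher in KO marrow, and of the 94 that fell, 26 were higher and 16 lower. Among 25 later-stage surface and MHC class II genes 22 were lower in KO marrow and 0 higher, among them 4 of the 5 that rose and 3 of the 4 that fell in LB31. Dntt, which fell with BLNK in LB31, was 9.51 in wild-type and 11.57 in KO marrow, 2.07 ± 0.24 higher without Blnk (adjusted p = 6.87e-05). Genes that rose with BLNK and were lower in KO marrow were Hdac9 (-1.39 ± 0.12), Serpinb1a (-1.40 ± 0.13), Egr2 (-1.36 ± 0.29), Egr1 (-1.20 ± 0.18), Rhoq (-0.87 ± 0.10) and Cd22 (-0.79 ± 0.11). These are 6 of the 13 rises tested in marrow, whereas Ccl3 (1.32 ± 0.40), Tnfrsf19 (1.32 ± 0.14) and Lgr5 (0.72 ± 0.21) were higher in KO marrow, the same sign as with BLNK in LB31. Of the 15 falls, Dntt and Sytl1 (1.60 ± 0.35) were higher in KO marrow and Slfn2 (-1.76 ± 0.12), S1pr3 (-1.59 ± 0.22) and Ly6d (-0.96 ± 0.17) were lower. From the lists, Ptpn6 (-0.99 ± 0.11), Cd72 (-0.69 ± 0.13), Btla (-1.96 ± 0.18), Irf4 (-0.40 ± 0.09), Mef2c (-0.77 ± 0.12) and Il2ra (-1.80 ± 0.27) rose in LB31 and were lower in KO marrow. Erg (3.24 ± 0.15), Bcl11a (0.66 ± 0.20), Lcp2 (1.28 ± 0.21) and Plcg1 (1.60 ± 0.10) fell in LB31 and were higher there. The list genes named here, of either sign, were chosen after their values were seen, so their numbers do not measure agreement. Others of them had the same sign in both. These were Cd2 (-1.78 ± 0.19), H2-Oa (-0.92 ± 0.11), Pim1 (-0.67 ± 0.19) and Dusp5 (-2.02 ± 0.25), and they fell in LB31 and were lower in KO marrow. Igll1 and Vpreb1 were higher in KO marrow by 2.23 ± 0.15 and 1.60 ± 0.11, far more than their small differences in LB31. Mycn, at 4.91 in wild-type and 5.12 in KO marrow, did not pass the threshold (adjusted p = 0.812) and was dim beside its level in LB31.

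**Figure D5:**
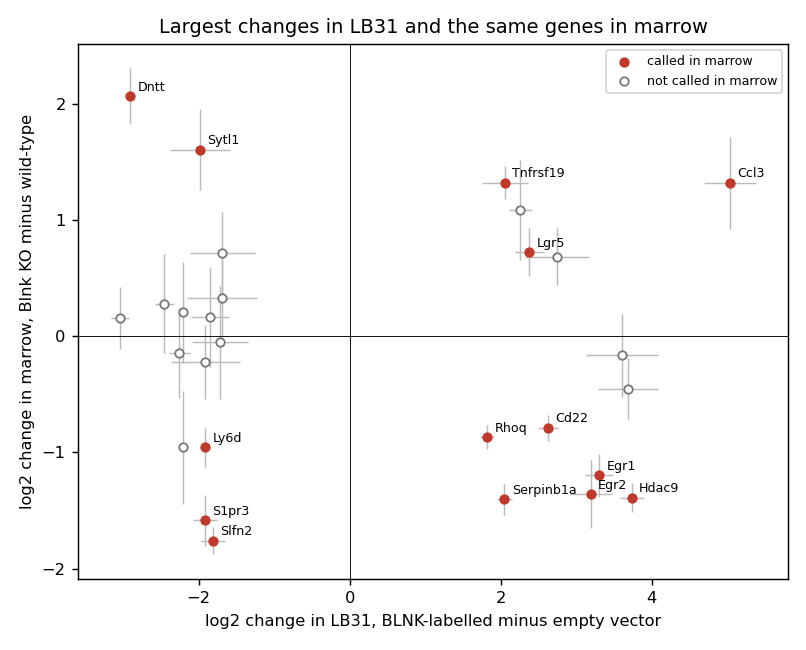
Each point is 1 of the 28 genes with the largest changes in LB31 that were tested in marrow; the x axis is the log2 change in LB31, BLNK-labelled minus empty vector, and the y axis the log2 change in marrow, Blnk KO minus wild-type, with SE bars and genes called in marrow filled. Dntt lies at upper left (-2.90 and 2.07) and Hdac9 at lower right (3.74 and -1.39), while Ccl3 (1.32 in marrow) and Slfn2 (-1.76) changed in the same direction in both.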

How the data were processed

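The deposited values are probe set signals of Affymetrix mouse expression arrays, a linear intensity never negative. Per the submitters' processing notes they were made with MAS5; its version and any scaling target are not given in the sources used here, nor are scan dates or detection calls. Of 45101 probe sets, 64 controls were left out, and platform annotation gave 34945 a single gene symbol. Here log2(signal + 4) was quantile normalized within the 9 LB31 arrays, and separately within the 12 marrow arrays. For each gene the probe set brightest on average over all arrays was used, and it was tested if 3 or more arrays of the fit placed it over their 40th percentile. Group means were fitted with limma 3.58.1 in R 4.3.3 (lmFit, eBayes with intensity trend, no covariate), and two-sided p-values were Benjamini-Hochberg adjusted across the genes of each fit, with calls under 0.05. The code was tested on simulated data.

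Changes are log2 ± SE with 3 arrays per group, and the constant of 4 understates the change of dim genes. Array number limits the precision. Genes named singly were the 15 largest rises and 15 largest falls among called genes changed at least 2-fold with groups that did not overlap, without immunoglobulin segments (1 higher) and clone names (2 higher, 5 lower), besides Blnk, Cebpb and members of gene lists. The comparison, the lists and the rule were chosen with earlier results of these data known. Promoter sequences are from RefSeq, GRCm38.p6. Alternatives were other scalings, constants, filters, probe set choices, fits with only 2 groups, without the trend or with a replicate block, and leaving out each array.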

Additional observations from a re-analysis of the deposited data

How the results depend on the processing

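The number of arrays limits the precision, and the scaling, the intensity trend and single arrays each moved counts of calls. BLNK against empty vector gave 2077 called genes and 505 as deposited, 1252 with the probe set of highest variance and 1244 without the intensity trend. BLNK against YF gave 1177, and 552 as deposited, 677 after median centring, 1845 with only the 2 groups fitted, 662 with the probe set of highest variance and 679 without the trend. YF against empty vector gave 42, and 594 as deposited, 1351 after median centring, 18 without the filter, 76 with a 60th percentile filter, 6 with only the 2 groups and 1 without the trend. Blnk KO against wild-type marrow gave 2277, and 3587 as deposited. Leaving out 1 array at a time gave 1481 to 2813, 771 to 851, 1 to 1116 and 1589 to 1958 genes for these comparisons in turn, the 2813 and 1116 both without empty-vector array 1. Same-numbered LB31 and marrow arrays deviated from their groups with correlations of only -0.037 to 0.071, and a replicate block gave 2063, 1153, 39 and 2200. Normalization removes shifts common to a whole array, so these values cannot show whether same-numbered arrays share a preparation. The higher and lower split for BLNK against YF was 512 and 665, with 66 and 486 as deposited and 131 and 546 after median centring; for YF against empty vector it was 16 and 26, 574 and 20, and 1323 and 28. For marrow it was 1117 and 1160, 3211 and 376, and 771 and 1578.

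Over the alternatives in which they were tested, 14 of the 15 largest rises and 12 of the 15 largest falls were called in the same direction each time, the exceptions being Pdcd1, Nrxn3, Ccl5 and Nol4l. Signs turned for Cebpb (0.12 as deposited, 0.14 after centring, 0.28 with the other probe set), Vpreb1 (0.083, 0.10 after centring), Mki67 (0.12, 0.14) and Igll1 (0.0032 after centring, 0.57 with another probe set). Myc turned to -0.0002 without BLNK-labelled array 1, and its range over single arrays left out was -0.015 (without empty-vector array 1) to 0.047. The cause was not tested.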

Other observations

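Of 10 plasma cell marker genes tested on the BLNK-labelled arrays, 3 were higher and 2 lower, against 7.37% and 8.58% of all genes. These counts were after quantile normalization, with 2 and 0 as deposited and 3 and 0 after median centring. Sdc1, which encodes the plasma cell surface proteoglycan syndecan-1, read 6.64, 6.10 and 6.81 with the empty vector and 7.21, 7.06 and 7.46 on the BLNK-labelled arrays (0.73 ± 0.17, adjusted p = 0.00877, but 0.057 without the intensity trend). The 2 groups did not overlap, nor did they for 29.9% of all genes tested. In marrow Sdc1 was lower in Blnk KO cells, at 8.61 in wild-type and 6.36 in KO (-2.25 ± 0.26, adjusted p = 6.16e-05). Etv5, an ETS factor gene that responds to ERK and rose with BLNK in LB31 (0.53 ± 0.12, adjusted p = 0.00865, but 0.068 without the trend), was higher in KO marrow (0.88 ± 0.20, adjusted p = 0.00916), the same sign in both systems. Dusp5, which fell in LB31 (-1.22 ± 0.08), was lower in KO marrow (-2.02 ± 0.25, adjusted p = 0.00011), again with the same sign, unlike Egr1 and Egr2.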
